A study of Mus musculus with 8 samples.

Results

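The imprinted growth genes examined here are 9 mouse genes of what is known as the imprinted gene network: H19, Meg3, Dlk1, Peg3, Cdkn1c, Mest, Plagl1, Grb10 and Ndn. They were taken from the table by symbol, as a set named with earlier results of these data known, and all 9 were found among 23418 named genes and had more than 3 reads in at least 1 library. The study compared the limbal rim, the ring between cornea and sclera that holds the limbal epithelial stem cells, with the corneal button inside it. Both tissues came from wild type C57BL/6J mice of 8 weeks of age, with no treatment, and were dissected from many eyes and pooled by tissue before RNA extraction, so no value belongs to a single animal. Although 4 samples per tissue are labelled, the values rest on 1 library of cornea and 1 of limbus. There was therefore no replicate spread and no test across replicates, and every interval below is a 95% counting interval (exact Clopper-Pearson for ratios and shares, exact Poisson for levels) that leaves out differences between mice, dissections and library preparations.

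Imprinted genes are transcribed mainly from the copy inherited from 1 parent, under the control of methylated regions set in the egg or sperm. Many of them act on growth before birth, where several maternally expressed genes hold growth back and several paternally expressed genes promote it, and many are turned down in most tissues after birth. Some of them have been linked to the quiescence of adult stem cells, as is known for the cyclin-dependent kinase inhibitor p57. The copy in use was not measured here, and the parental class of each gene is textbook background.

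Of the 9 genes, 5 (H19, Plagl1, Cdkn1c, Meg3 and Grb10) were at least 2-fold higher in the limbus than in the cornea, where 20.8% of all 15572 genes with more than 3 reads in a library lay on that side. None of the 9 was at least 2-fold higher in the cornea, where 8.84% of all genes lay. Beyond counting error, 5 of 9 were higher in the limbus (35.5% of all genes) and 1 of 9, Ndn, was higher in the cornea (36.7% of all genes). Dlk1, Peg3 and Mest had intervals that included equal levels, which for Peg3 and Mest changes with scaling to total reads. The median log2 ratio of limbus over cornea was 1.76 for the 9 genes and 0.01 for all genes.

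**Figure D1:**
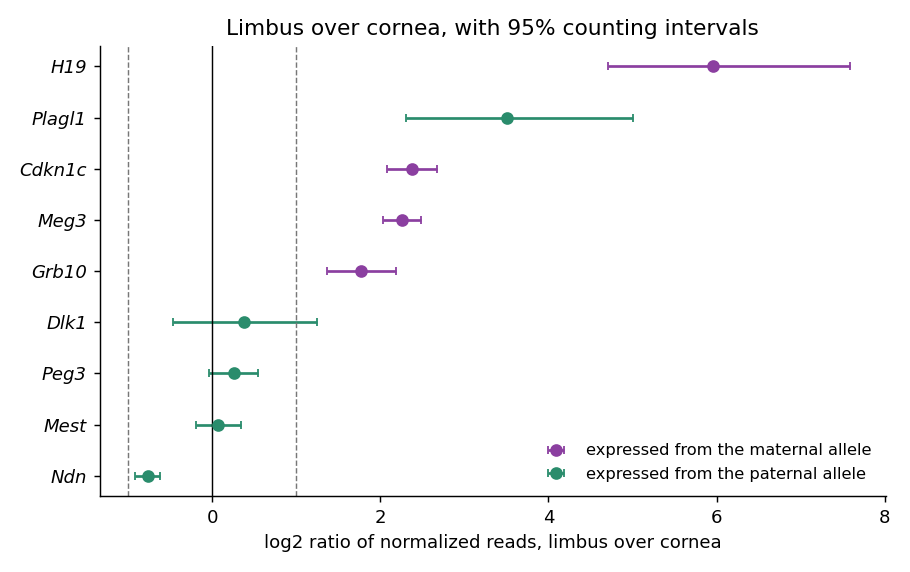
Log2 ratio of normalized reads, limbus over cornea, for each gene (1 library per tissue); points are the ratios, bars the 95% counting intervals, dashed lines a 2-fold difference either way, and colours the parental allele each gene is known to be expressed from. The 4 maternally expressed genes and Plagl1 lie beyond the dashed line on the limbal side, and Ndn is the 1 gene whose interval lies wholly on the corneal side.

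The libraries held 26104317 cornea reads and 21182025 limbus reads on named genes. The tissue labels were checked against cell type genes. Among genes of the corneal epithelium, the cornea-specific keratin Krt12 was 4.56-fold higher in the cornea, Pax6 1.62-fold and Krt5 1.32-fold. All 5 of 5 genes of the limbal and conjunctival epithelium (Krt15, Krt14, Krt19, Krt13, Krt4) were at least 2-fold higher in the limbus, where 20.8% of all genes lay. Krt15 had a log2 ratio of 3.32. Genes of other tissues were also higher in the limbal library. All 8 of 8 skeletal muscle genes were higher in the limbus, and their normalized reads summed to 90.0 for the cornea and 10899 for the limbus. For 6 vessel endothelium genes, 5 of which passed 2-fold, the sums were 193 and 2528, and for 4 lens and retina genes, all of which passed 2-fold, they were 871 and 9736. The genes listed for the muscle satellite cell lineage were at or near 0 in both libraries (Pax7 and Myf5 listed at 0, Myod1 with 0 cornea and 2 limbus reads, Myog with 1 and 2). The part of these tissues in the ratios of the imprinted genes was not tested, and in pooled tissue a smaller number of cells and less RNA per cell cannot be told apart.

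H19 is a long noncoding RNA that is expressed from the maternal allele, is abundant in the fetus and is the host transcript of miR-675. It lies on the minus strand of chromosome 7 (chr7:142575529-142578143 in GRCm38). The cornea gave 5 reads and the limbus 290 (4.84 and 300 normalized reads, that is reads divided by the size factor of the library). The gene was barely detected in the cornea and readily detected in the limbus. Its ratio was 62.0-fold (interval 26.3 to 192), a log2 ratio of 5.95, and 99.6% of all genes had a lower ratio. The hairpin Mir675 lies within H19 on the same strand and is listed at 0 on a row of its own. Because H19 carried the widest difference of the 9 genes, both mature products that RefSeq gives for the hairpin are shown, with the seed (bases 2 to 8) in capitals. The seeds differ from each other, and mature miRNAs were not measured in these libraries.
miR-675-5p: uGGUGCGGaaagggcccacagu
miR-675-3p: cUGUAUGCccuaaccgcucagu

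Cdkn1c encodes p57, an inhibitor of cyclin-dependent kinases that holds cells out of the cycle and is expressed from the maternal allele. It lies on chromosome 7 (chr7:143458339-143461050, minus strand), in the imprinted cluster next to that of H19. The cornea gave 118 reads and the limbus 572 (114 and 591 normalized reads). The limbal level was 5.18-fold the corneal level (interval 4.24 to 6.37), a log2 ratio of 2.37. An annotated antisense transcript, Gm44732, overlaps Cdkn1c, and whether reads were counted by strand is not given in the sources used here.

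Meg3 is a maternally expressed long noncoding RNA of the Dlk1-Dio3 cluster (chr12:109541001-109571726, plus strand). The cornea gave 205 reads and the limbus 916 (198 and 947 normalized reads). The limbal level was 4.77-fold higher, a log2 ratio of 2.26 (interval 2.04 to 2.48), close to that of Cdkn1c, whose interval overlaps it. A long noncoding RNA on the opposite strand, Gm26906, overlaps Meg3, and the hairpin Mir770 on the same strand is listed at 0. The mature products of Mir770 as given by RefSeq, with their seeds in capitals, share no seed with each other or with miR-675.
miR-770-5p: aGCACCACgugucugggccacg
miR-770-3p: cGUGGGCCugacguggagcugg

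Grb10 encodes an adaptor that binds the insulin and insulin-like growth factor receptors and dampens their signal, and outside neurons it is expressed mainly from the maternal allele. It lies on chromosome 11 (chr11:11930508-12038683, minus strand), and no other annotated gene overlaps it. The cornea gave 67 reads and the limbus 213 (64.8 and 220 normalized reads). The limbal level was 3.40-fold higher (interval 2.57 to 4.54), a log2 ratio of 1.76.

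Plagl1 encodes the zinc finger factor Zac1, which is known to restrain growth and to regulate other imprinted genes, and it is the 1 paternally expressed gene among those past 2-fold. It lies on chromosome 10 (chr10:13060504-13131694, plus strand). The cornea gave 6 reads and the limbus 64 (5.80 and 66.2 normalized reads). The ratio was 11.4-fold, and its interval from 4.96 to 32.2 is wide because the cornea had so few reads. On the log2 scale the ratio was 3.51 (2.31 to 5.01), so that its interval overlaps that of H19 (4.71 to 7.59) and that of Cdkn1c (2.08 to 2.67).

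Dlk1 encodes a transmembrane relative of the Notch ligands that holds preadipocytes and other progenitors undifferentiated and is expressed from the paternal allele of the cluster that holds Meg3 (chr12:109452823-109463336, plus strand). The cornea gave 23 reads and the limbus 28 (22.2 and 28.9 normalized reads). It was low in both tissues, with a log2 ratio of 0.38 (interval -0.47 to 1.24). The interval still allows a difference of up to 2.36-fold, so no difference was detectable at this depth, and one of 2-fold remains possible. Peg3, a paternally expressed zinc finger gene on chromosome 7 (chr7:6703892-6730431, minus strand), had 190 cornea and 212 limbus reads. Its log2 ratio was 0.25 (interval -0.04 to 0.54), and counting error alone leaves room for up to 1.46-fold. Mest, a paternally expressed gene for a protein of the hydrolase fold on chromosome 6 (chr6:30723547-30748465, plus strand), had 233 and 229 reads. Its log2 ratio was 0.07 (interval -0.20 to 0.34), and counting error alone leaves room for up to 1.27-fold. Scaling to total reads took the log2 ratio of Peg3 to 0.46 and that of Mest to 0.28. This shift of 0.206 is larger than the distance of either lower end (-0.036 and -0.199) from equal levels. Neither interval included equal levels under that scaling, so the result for Peg3 and Mest depends on the scaling. Mest overlaps Copg2 on the opposite strand, and its hairpin Mir335 is listed at 0.

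Ndn encodes necdin, a protein of the MAGE family that restrains the cycle in neurons and other postmitotic cells and is expressed from the paternal allele of the Prader-Willi region (chr7:62346569-62350262, plus strand). The cornea gave 1102 reads and the limbus 605 (1066 and 625 normalized reads). It was 1.70-fold higher in the cornea (interval 1.54 to 1.89), a log2 ratio of -0.77, and so lay on the opposite side to the other 5 genes with a difference beyond counting error. A long noncoding RNA, Gm32061, overlaps it on the opposite strand.

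**Figure D2:**
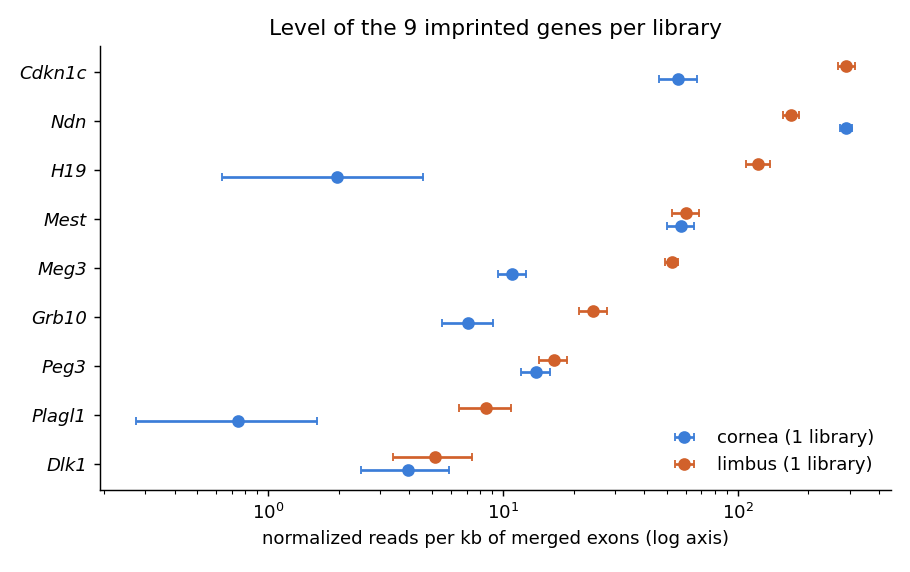
Normalized reads per kb of merged exons on a log axis for each gene in the cornea library and the limbus library, with exact 95% Poisson intervals as bars. H19 and Plagl1 have the lowest levels in the cornea (1.97 and 0.742), and Cdkn1c the highest in the limbus (290.0).

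Levels of different genes were compared per kb of merged exons, which covers all annotated isoforms and so lowers the value of genes with many of them. In the cornea the order began with Ndn at 289 normalized reads per kb (272 to 306), above Mest at 57.1 and Cdkn1c at 56.0, which did not differ beyond their intervals. Peg3 at 13.8 and Meg3 at 11.0 came next, with overlapping intervals. Each neighbour in the lower order, Grb10 at 7.13, Dlk1 at 3.93, H19 at 1.97 and Plagl1 at 0.742, overlapped the next. In the limbus the order began with Cdkn1c at 290.0 (267 to 315), then Ndn at 169 (156 to 183) and H19 at 122 (108 to 137), and these intervals did not overlap. Mest at 60.0 and Meg3 at 52.3 overlapped each other and lay above Grb10 at 24.2, which lay above Peg3 at 16.4. Plagl1 at 8.46 and Dlk1 at 5.12 were lowest, with overlapping intervals. H19 thus stood at rank 8 of 9 in the cornea and rank 3 in the limbus, whereas Ndn, Mest and Cdkn1c were among the 4 highest in both.

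**Figure D3:**
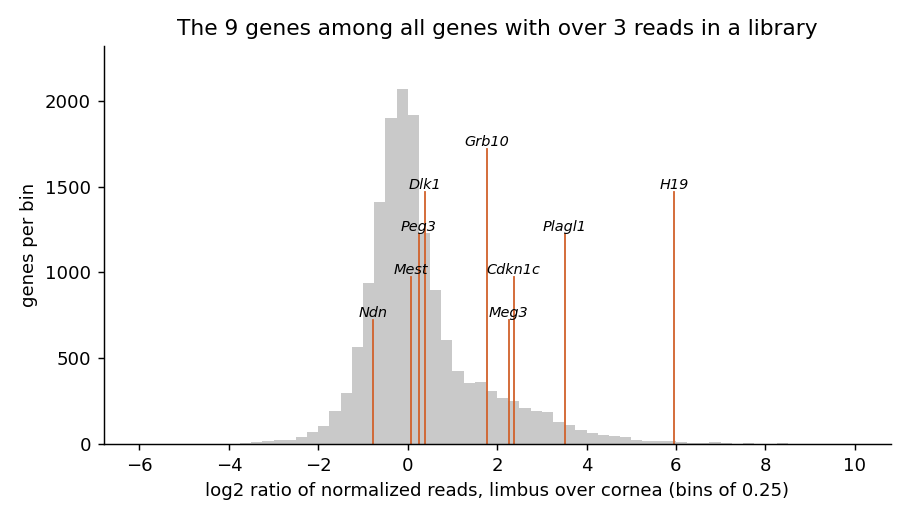
Number of genes per bin of 0.25 in the log2 ratio of limbus over cornea, for all 15572 genes with more than 3 reads in a library (grey; reads of 3 or fewer set to 3; ratios past the ends of the axis in the end bins), with the 9 genes drawn as lines of staggered height. The grey distribution peaks near 0 and has its longer tail on the limbal side, where H19 and Plagl1 lie.

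By parental class, 4 of 4 maternally expressed genes (H19, Cdkn1c, Meg3, Grb10) were at least 2-fold higher in the limbus (20.8% of all genes), with a median log2 ratio of 2.31. Of the 5 paternally expressed genes (Plagl1, Dlk1, Peg3, Mest, Ndn), 1 passed 2-fold on that side, which is close to the share over all genes, and the median was 0.25. This division was made after the values were seen and was not tested. Among the other imprinted genes of known class that had enough reads, 2 of 11 maternally expressed genes were at least 2-fold higher in the limbus, close to the 20.8% of all genes, and the median was 0.36. In the same set, 7 of 16 paternally expressed genes passed 2-fold for the limbus and 2 for the cornea (20.8% and 8.84% of all genes), and the median was 0.58.

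The promoters of genes that were higher in the limbus and of Ndn, which was higher in the cornea, are shown to compare their sequence. RefSeq (GRCm38.p6) gave a promoter, 250 bases before to 50 bases after a start site, for 7 of the 9 genes, not for H19 and Cdkn1c. Capitals mark matches on either strand to TATAAA, the core of the TATA box, or to GGGCGG, which is known as the GC box. The letters TATAAA were found in 13.6% of all 32851 promoters and GGGCGG in 35.7%. For Meg3 and Grb10, which have 2 listed start sites each, the upstream one is shown. Where matches overlap, the capitals run together. The sequences read 5′ to 3′ on the strand of the gene.
Meg3, chr12:109540746-109541045, plus strand: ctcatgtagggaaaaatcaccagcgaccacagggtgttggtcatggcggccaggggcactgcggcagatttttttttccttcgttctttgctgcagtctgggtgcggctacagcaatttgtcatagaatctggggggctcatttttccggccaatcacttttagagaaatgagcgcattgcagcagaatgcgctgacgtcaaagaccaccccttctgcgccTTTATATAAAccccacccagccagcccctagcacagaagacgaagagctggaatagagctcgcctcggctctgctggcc
Plagl1, chr10:13090582-13090881, plus strand: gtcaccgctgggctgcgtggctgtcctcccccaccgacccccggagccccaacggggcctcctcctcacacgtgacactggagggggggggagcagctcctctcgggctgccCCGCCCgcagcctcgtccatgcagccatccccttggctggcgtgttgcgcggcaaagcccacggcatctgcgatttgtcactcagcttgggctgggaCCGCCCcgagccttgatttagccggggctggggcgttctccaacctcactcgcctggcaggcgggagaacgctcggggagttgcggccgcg
Grb10, chr11:12037371-12037670, minus strand: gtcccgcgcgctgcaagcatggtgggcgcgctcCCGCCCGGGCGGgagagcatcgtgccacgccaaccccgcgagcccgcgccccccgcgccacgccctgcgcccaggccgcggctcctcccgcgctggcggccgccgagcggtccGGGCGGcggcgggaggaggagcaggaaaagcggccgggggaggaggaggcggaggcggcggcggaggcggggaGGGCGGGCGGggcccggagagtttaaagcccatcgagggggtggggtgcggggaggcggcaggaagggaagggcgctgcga
Ndn, chr7:62348027-62348326, plus strand: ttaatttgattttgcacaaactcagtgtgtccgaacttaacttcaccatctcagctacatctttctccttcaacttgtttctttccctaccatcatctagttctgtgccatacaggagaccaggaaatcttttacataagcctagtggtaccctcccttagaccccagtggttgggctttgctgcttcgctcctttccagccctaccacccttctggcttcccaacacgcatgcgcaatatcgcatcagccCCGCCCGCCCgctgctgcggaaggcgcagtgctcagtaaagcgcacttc

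Neither motif was found in all 3 promoters of genes higher in the limbus. Meg3 had 2 overlapping matches to the TATA box shortly before its start site and none to the GC box. Plagl1 had 2 GC boxes and Grb10 had 5, and neither had a TATA box match. Ndn also had 2 GC boxes, which overlap and lie just after its start site. The promoters differed in CpG dinucleotides as well, from 45 in Grb10, more than in 98.1% of all promoters, and 26 in Plagl1 to 13 in Meg3 and 11 in Ndn, beside a median of 7 over all promoters. The letters GGGGCCCC, the core known for binding by the Plagl1 protein, were in 1.08% of promoters and, among the 7 genes with a promoter entry, were found in that of Peg3.

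The listed neighbours of the 9 genes showed that genes of 1 cluster often differed from each other. Some of them, among them Copg2, Cobl, Ddc, Ube3a and Atp10a, were given no parental class. Whether any neighbour is imprinted in these tissues was not measured. Where a pair of read numbers follows without a tissue, the cornea is given first. Igf2, the paternally expressed growth factor that shares its enhancers with H19, went from 183 cornea reads to 1278 limbus reads, a log2 ratio of 2.90 (2.68 to 3.13). Both genes of this reciprocally imprinted pair were thus higher in the limbus, and the H19 share of their joint reads was 2.66% for the cornea (0.869 to 6.10) and 18.5% for the limbus (16.6 to 20.5). Nctc1, a noncoding transcript near a muscle enhancer of this cluster, had 0 and 6 reads, and the lower end of its counting interval was 1.26-fold higher in the limbus. In the cluster of Cdkn1c, the potassium channel gene Kcnq1 had 0 cornea and 11 limbus reads, and the lower end of its counting interval was 2.68-fold higher in the limbus. Kcnq1ot1, the paternally expressed antisense RNA that silences this cluster, ran the other way with 113 and 55 reads and a log2 ratio of -0.94 (-1.44 to -0.47). Among maternally expressed neighbours of Cdkn1c, Phlda2 had a log2 ratio of -0.45 and Slc22a18 of -0.58, both higher in the cornea beyond counting error, and Ascl2 lay at 0.15 (-0.32 to 0.62). Scaling to total reads took Phlda2 to -0.25, with an interval that included equal levels. Cd81 lay at 0.50, Tssc4 at 0.55, Osbpl5 at 0.30 and Nap1l4 at -0.26. Tspan32 had 1 and 5 reads, and Th was under the limit of 3 reads in both libraries. Of the maternally expressed neighbours of Cdkn1c, Kcnq1 was thus the 1 that was also at least 2-fold higher in the limbus.

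In the cluster of Dlk1 and Meg3, the maternally expressed noncoding RNAs Rian and Mirg were both higher in the limbus beyond counting error. Rian, the host of small nucleolar RNAs, had 135 and 230 reads, for a log2 ratio of 0.86 (0.55 to 1.18). Mirg, a host of many miRNAs, had 3 and 32 reads, for a log2 ratio of 3.51 (1.83 to 5.86). The intervals of Meg3 and Rian did not overlap, whereas that of Mirg takes in the interval of Meg3. Meg3 made up 60.3% of the joint reads of Meg3 and Rian for the cornea and 79.9% for the limbus. Dio3, which encodes the deiodinase that inactivates thyroid hormone, had 1 and 7 reads, with an interval that included equal levels, and Rtl1 had 0 and 2. Of the joint reads of Meg3 and Dlk1, Meg3 took 89.9% in the cornea (85.2 to 93.5) and 97.0% in the limbus (95.7 to 98.0).

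Around Ndn, the neighbours did not follow a single direction. Mkrn3, a paternally expressed gene for a ubiquitin ligase, was 2.30-fold higher in the cornea with 59 and 24 reads, a log2 ratio of -1.20 (-1.95 to -0.49). Ube3a, the ubiquitin ligase gene of Angelman syndrome, was 2.53-fold higher in the cornea with 1124 and 415 reads. Atp10a, which encodes a phospholipid flippase, had 1 cornea and 77 limbus reads, a log2 ratio of 6.36 with a wide interval (3.84 to 11.7). Peg12 had 5 and 7 reads, and Magel2, Snrpn and Snurf were listed at 0, as were Ins2, Zim3 and Klf14 in the other clusters. The span of Snurf lies within that of Snrpn, and how reads on overlapping genes were counted is not given in the sources used here. The values at 0 for Snrpn and Snurf therefore do not show that they were absent. Beside Peg3, Usp29 had 3 and 4 reads and Zim1 had 13 and 10. Beside Mest, Copg2, which encodes a coatomer subunit and overlaps it, had 3367 and 1822 reads and was 1.73-fold higher in the cornea. The Mest share of their joint reads was 6.47% for the cornea and 11.2% for the limbus. Beside Grb10, Cobl, which encodes an actin nucleator, was 1.40-fold higher in the cornea and Ddc had 5 and 7 reads.

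**Figure D4:**
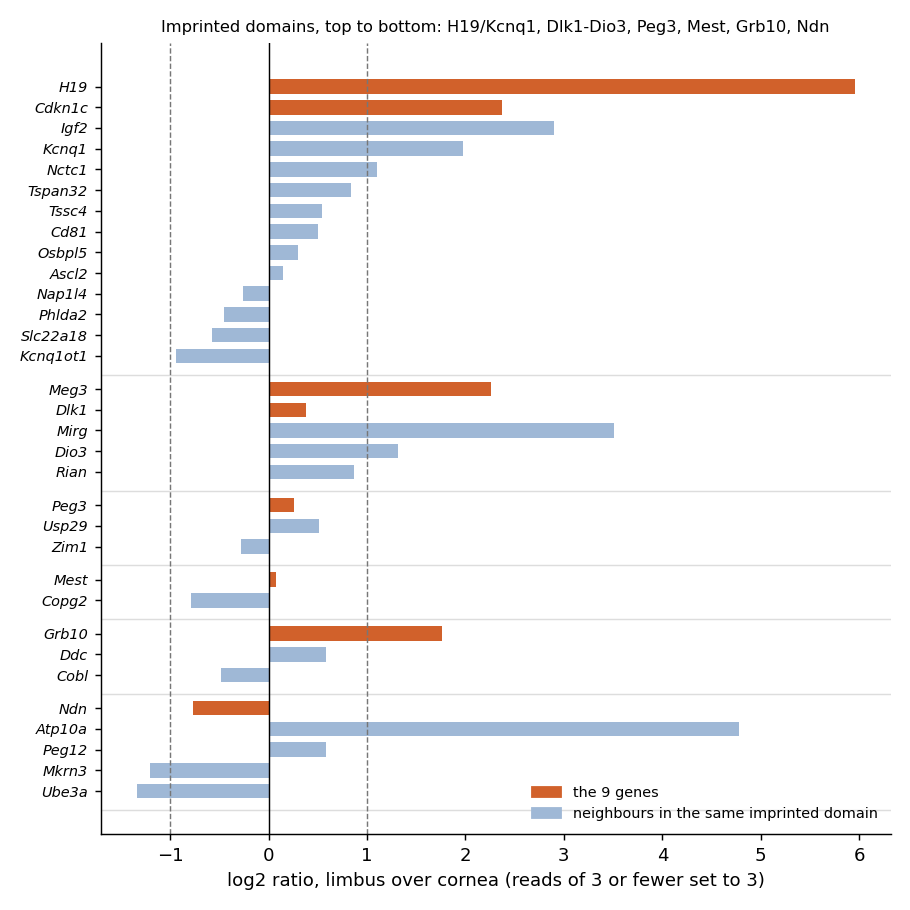
Log2 ratio of limbus over cornea (reads of 3 or fewer set to 3), by cluster. Shown are 8 of the 9 genes and their listed neighbours with more than 3 reads in a library, and Plagl1 has no listed neighbour. Setting low reads to 3 lowers the bars of Atp10a, Dio3 and Tspan32. It also lowers those of Kcnq1 and Nctc1, which had 0 cornea reads. Dashed lines mark a 2-fold difference, and Cdkn1c, Meg3, Grb10 and Ndn each stand beside neighbours with bars of another size or direction.

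Across all other genes listed for imprinted loci, 64 of 67 were found, 9 were at 0, 7 had 3 reads or fewer in both libraries and 48 were compared. Of those compared, 11 were classed as maternally and 16 as paternally expressed. The rest, Gatm and Slc38a4 among them, were given no parental class. Of these 48, 15 were at least 2-fold higher in the limbus (20.8% of all genes), 3 were at least 2-fold higher in the cornea (8.84% of all genes) and 30 were neither, with a median log2 ratio of 0.50. The widest limbal ratios outside the clusters above belonged to Gatm, an enzyme of creatine synthesis, with 7 and 115 reads (log2 ratio 4.13), and to Nap1l5 with 4 and 27 reads (2.85). Nnat, which encodes the membrane protein neuronatin, followed with 27 and 145 reads (2.52), then the amino acid transporter gene Slc38a4 with 11 and 38 reads (1.88). Sgce, which encodes a sarcoglycan, had 94 and 301 reads (1.77). Rasgrf1, an exchange factor for Ras, was 2.66-fold higher in the cornea with 2220 and 781 reads. Igf2r, the clearance receptor of Igf2, had a log2 ratio of 0.36 (0.24 to 0.48).

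The partners through which the 9 genes are known to act were examined next. Of 9 genes of the insulin and insulin-like growth factor signal that Grb10 dampens, 2 were at least 2-fold higher in the limbus and none in the cornea, where 20.8% and 8.84% of all genes lay, and the median log2 ratio was 0.20. The limbal count was thus close to the share over all genes. The ligand gene Igf1 had 11 and 131 reads, a log2 ratio of 3.67 (2.78 to 4.71), and the receptor substrate gene Irs1 had 23 and 136 reads, a log2 ratio of 2.66 (2.02 to 3.37). The receptors themselves did not follow, with a log2 ratio of -0.06 for Igf1r and -0.07 for Insr, whose signs change when the libraries are scaled to total reads.

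For Cdkn1c, 15 cell cycle genes were read. None was at least 2-fold higher in the limbus, 2 were at least 2-fold higher in the cornea (20.8% and 8.84% of all genes) and the median log2 ratio was -0.32. Cdkn1b, which encodes p27, the close relative of p57, went from 3155 cornea reads to 1105 limbus reads, a log2 ratio of -1.42 (-1.52 to -1.32). The p57 and p27 genes thus ran in opposite directions, while Cdkn1a, for p21, lay at -0.10, with a sign that changes with scaling to total reads. Ccne2, a cyclin of entry into S phase, had 257 and 84 reads, a log2 ratio of -1.52 (-1.89 to -1.16). The D cyclin genes, none of which passed 2-fold, were divided, with a log2 ratio of -0.97 for Ccnd1 and of 0.68 for both Ccnd2 and Ccnd3. Beyond counting error, 9 of the 15 genes had the higher level in corneal tissue (36.7% of all genes) and 3 in limbal tissue (35.5%).

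For Dlk1, 3 of 7 Notch pathway genes were at least 2-fold higher in the limbus and none in the cornea (20.8% and 8.84% of all genes), and the median log2 ratio was 0.31. Dlk2, the relative of Dlk1 that is not imprinted, went from 98 cornea reads to 618 limbus reads, a log2 ratio of 2.75 (2.44 to 3.08). Of the pair, Dlk2 was thus the gene with the higher reads and with a difference beyond counting error. Of the 7 Notch pathway genes, 5 had the higher level in limbal tissue beyond counting error (35.5% of all genes) and 2 in corneal tissue (36.7%). These 2 were the receptor gene Notch3, with 5755 and 3349 reads (log2 ratio -0.69), and the target gene Hes1, with 3384 and 2756 (-0.20). The sign of Hes1 changes with scaling to total reads. Notch4, a receptor known from vessel endothelium, had 1 and 66 reads, and the target gene Hey1 had 4 and 45. The endothelial genes Cdh5, with 3 and 421 reads, and Pecam1, with 6 and 831, moved in the same direction, and their part was not tested.

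Of 5 MAGE family relatives of Ndn, 2 were at least 2-fold higher in the limbus and none in the cornea (20.8% and 8.84% of all genes), with a median log2 ratio of 0.90. Magee1 had 22 and 61 reads (log2 ratio 1.57) and Maged2 had 168 and 397 (1.34), and none of the 5 was higher in the cornea beyond counting error. In the families of Plagl1, Grb10 and Peg3 partners, Plag1, the oncogenic relative of Plagl1, was 3.34-fold higher in the cornea with 50 and 14 reads. Grb14, the relative of Grb10 that also binds the insulin receptor, was 7.69-fold higher in the limbus with 5 and 36 reads. Among 6 such genes these were the 2 past 2-fold (20.8% of all genes were past it for the limbus, 8.84% for the cornea).

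**Figure D5:**
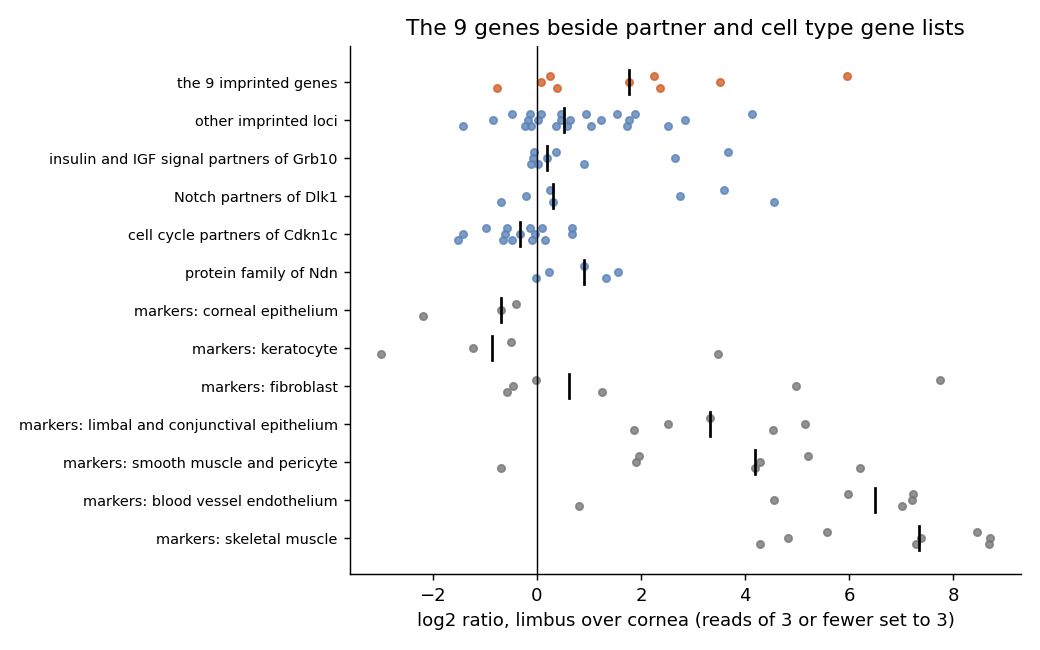
Log2 ratio of limbus over cornea (reads of 3 or fewer set to 3) of single genes in the 9 imprinted genes, other imprinted loci, partner lists and cell type lists; each point is 1 gene and the black bars are medians. The median of the 9 genes, 1.76, lies above those of the partner lists. It lies below those of the vessel, skeletal muscle, smooth muscle and pericyte, and limbal and conjunctival epithelium genes.

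Cell type gene lists differed in direction. The median log2 ratio was 7.33 for 8 skeletal muscle genes, 6.50 for 6 vessel endothelium genes and 4.20 for 7 smooth muscle and pericyte genes. In the last list Notch3, also counted above among the Notch pathway genes, lay at -0.69. With it, the normalized reads of that list summed to 5937 for the cornea and 6500 for the limbus. It was 3.32 for 5 limbal and conjunctival epithelium genes and 3.30 for 4 lens and retina genes. Schwann cell genes (5) had a median of 2.65 and melanocyte genes (5) of 2.52. Medians on the corneal side were -0.86 for 4 keratocyte genes and -0.69 for 3 corneal epithelium genes. With 1 ratio per gene, a similar size does not tell which cells held the reads. For 6 fibroblast genes the median was 0.62, with Pdgfra at -0.45 and the widest ratios in Col3a1, with 106 and 3124 reads, and Pi16, with 1 and 604. Keratocyte genes fell on both sides, with Kera 7.97-fold higher in the cornea and Ptgds 11.2-fold higher in the limbus. Their median lies between Aldh3a1 (-1.22) and Angptl7 (-0.50). With 614210 normalized cornea reads beside 11723 for Kera, Aldh3a1 need not mark keratocytes alone. Among 4 corneal endothelium genes 2 passed 2-fold in the limbus (20.8% of all genes), and so did 2 of 4 leukocyte genes. So did the 2 cartilage genes with enough reads, Col2a1 with 2 and 19 reads and Comp with 4 and 147. The other 2 cartilage genes were too low to compare, Acan with 0 and 3 reads and Matn1 listed at 0. Of the adipocyte genes Fabp4 was 20.1-fold higher in the limbus and Lep, with 11 and 2 reads, was 5.15-fold higher in the cornea (log2 ratio -2.36, -5.58 to -0.17), while Adipoq had 1 read in each library and Plin1 was listed at 0. The share of any of these cells in the reads of H19, Plagl1, Cdkn1c, Meg3 or Grb10 was not tested.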

How the data were processed

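RNA of pooled corneal buttons and limbal rims was made into stranded total RNA libraries and sequenced as paired reads on a NextSeq instrument. The authors mapped the reads to GRCm38 (mm10) with CLC Genomics Workbench and named the trimmed mean of M-values as their normalization. The authors deposited 1 table with, per gene, the mean normalized signal over the libraries, the log2 fold change between tissues and its standard error, and p-values. Their fold changes and p-values are not reported here. Labels number the samples L001 to L004 in each tissue, as sequencing lanes are also named, but the table holds no value per sample.

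The table has 40904 rows, of which 17484 name no gene and were left out, and 5978 named genes are at 0. The other 17442 means are whole reads of 2 libraries, divided by size factors (cornea 1.0337, limbus 0.9674). Where a mean allowed several pairs of reads (11299 genes), the pair was taken that best gave the deposited log2 fold change and standard error under a shrinkage model fitted to the table, so reads are derived values and the direction of most genes rests on those columns. The table met this to within 0.001 for 17441 genes. Of the 9 genes, Dlk1 and Plagl1 allowed 1 pair only.

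Genes with more than 3 reads in a library were compared, reads of 3 or fewer were set to 3 for counts and medians, and a gene was called at a 2-fold difference. Against 0 reads, the lower end of the counting interval is given in place of a ratio. Reads carry no count of molecules, so intervals cover counting error only. The design foresaw counts per sample, which the table does not give. Members and lists were chosen with earlier results of these data known. The genes named are the 9 genes, those past 2-fold with the widest ratios in each list (up to 5 each way) and the neighbours in each imprinted cluster with more than 3 reads, and any further gene was picked with its value in view. Parental classes were added by hand after the values were seen. Genes were identified by symbol, because in 18556 rows with an accession found in RefSeq only 2 accessions belonged to the named gene. Positions and exon lengths are from GENCODE M21. Python 3.11.15, numpy 2.4.6, scipy 1.17.1, pandas 2.3.3 and matplotlib 3.10.9 were used.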

Additional observations from a re-analysis of the deposited data

How the results depend on the processing

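The direction of all 9 genes and the count of 5 genes at least 2-fold higher in the limbus held with scaling to total reads, with a trimmed mean of M-values and with 1 normalized read added to both libraries. Scaling to total reads raised every log2 ratio by 0.21, which took Ndn to -0.56. It also moved the intervals of Peg3 and Mest off equal levels, to the limbal side. With a fold of 4 or a mean of at least 50, 4 genes were higher in the limbus, and with a fold of 1.5 there was 1 higher in the cornea, where the 2-fold call gave 0. Of the other imprinted genes, 15 were higher in the limbus, with 6 at a fold of 4 and 6 at a mean of at least 50. In the cornea there were 3, with 6 at a fold of 1.5 and 0 at a fold of 4. The next best pair of reads, which met the deposited values far less closely, took H19 to 0.82, Grb10 to -0.57 and Ndn to -4.02. It took Peg3 to 2.05, Mest to 1.51, Meg3 to 3.50 and Cdkn1c to 6.32. The median of the 9 genes was then 1.51, which is the moved value of Mest, so it does not show that single genes held. These changes follow from the construction of each alternative. Depth limits Dlk1, Plagl1 and H19, which had 23, 6 and 5 cornea reads. Leaving out a replicate could not be run. No paired analysis was possible because the table holds no value per numbered sample.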
